A study of Mus musculus with 200 samples.

Results

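The cytochrome P450 genes encode haem-bound oxygenases, which add an oxygen atom to drugs, steroids, fatty acids, sterols and vitamins. They were taken as every row of the count table whose symbol reads Cyp, a family number, a subfamily letter and a gene number, which gave 90 genes of 38406 rows, in 38 subfamilies. The symbol rule leaves out Cyp51 and pseudogenes, and the values measured here played no part in it.

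The data are 200 single cells of the thymic medulla, epithelial by sort, taken at 5 weeks of age from female mice on a B6xNOD background. In all groups the mice carried an Aire-GFP transgene, and cells were sorted from digested thymus as CD45-, Ly51-, MHCII+ and GFP+. The groups were Aire knockout (KO) cells with high GFP (KO GFPhi, 48 cells), Aire wild-type (WT) cells with high GFP (WT GFPhi, 61 cells), KO cells with low GFP (KO GFPlo, 52 cells) and WT cells with low GFP (WT GFPlo, 39 cells). Cells were sorted on 2 dates, with 72 and 128 cells. KO GFPhi had 9 and 39 of them and WT GFPhi 23 and 38. KO GFPlo had 22 and 30 and WT GFPlo 18 and 21. Values over both dates therefore join genotype with date, and the part of the date in them was not tested. The labels name no animal, so each group is 1 sample and no test was made, and GFP served as a marker of Aire expression.

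Medullary thymic epithelial cells show developing T cells a wide range of proteins that otherwise belong to single organs, and Aire is a nuclear protein needed for much of this display. Many P450 enzymes are such proteins: most drug-metabolising members are liver enzymes, some belong to nose, lung or skin, and the steroid-making members belong to adrenal gland and gonad. Several human P450 enzymes are autoantigens in liver, adrenal and polyendocrine autoimmunity. Cyp26a1 stands apart by function, since it degrades retinoic acid and is itself a classical retinoic acid target gene.

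Total counts per cell ran from 2429 to 370365, and group totals were 3011900 in KO GFPhi, 3468109 in WT GFPhi, 1847240 in KO GFPlo and 2260672 in WT GFPlo. Levels are counts summed over the cells of a group, per 1000000 counts of that group (CPM), with exact Poisson 95% intervals, and ratios have exact binomial 95% intervals. The intervals cover counting error only, not the spread between cells, animals or dates. In such sums fewer cells that express a gene and less RNA per cell cannot be told apart, and the sequenced tags are not known to be independent molecules. All 15 medullary epithelial markers were detected. A cell was called leukocyte-marked where its summed counts of 22 leukocyte markers exceeded those of the medullary list. This held for 2 KO GFPhi, 10 WT GFPhi, 17 KO GFPlo and 6 WT GFPlo cells, although the sort was for CD45- cells. The summed leukocyte level was 1449 CPM in KO GFPhi against 7494 CPM in WT GFPhi, and 3726 CPM in KO GFPlo against 5844 CPM in WT GFPlo. All 22 leukocyte markers had counts, and single cells reached 6334 CPM in KO GFPhi, 54677 CPM in WT GFPhi, 15960 CPM in KO GFPlo and 42569 CPM in WT GFPlo. Aire itself stood at 814.8 CPM in KO GFPhi, 537 CPM in WT GFPhi, 316 CPM in KO GFPlo and 244 CPM in WT GFPlo. Reads come from transcript ends, and where the Aire deletion lies is not given in the sources used here, so these values do not check the genotype labels.

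Promoters of 4 members are printed because they show the range of promoter types in the family and because the results below turn on these genes. They are 300 bases each, 250 before to 50 after the start, from RefSeq on GRCm38.p6, and RefSeq gave a promoter for 70 of the 90 members. In Cyp26a1 (chr19:37697558-37697857, plus strand) the capitals mark a retinoic acid response element, AGTTCA repeated in the same direction with 5 bases between, which was found on the minus strand. In Cyp2a5 (chr7:26835089-26835388, plus strand), a coumarin hydroxylase of liver, they mark the TATA box TATAAA. In Cyp20a1 (chr1:60343050-60343349, plus strand), an orphan P450, and in Cyp2b10 (chr7:25897408-25897707, plus strand), a phenobarbital-inducible liver enzyme, they mark CG pairs.
Cyp26a1: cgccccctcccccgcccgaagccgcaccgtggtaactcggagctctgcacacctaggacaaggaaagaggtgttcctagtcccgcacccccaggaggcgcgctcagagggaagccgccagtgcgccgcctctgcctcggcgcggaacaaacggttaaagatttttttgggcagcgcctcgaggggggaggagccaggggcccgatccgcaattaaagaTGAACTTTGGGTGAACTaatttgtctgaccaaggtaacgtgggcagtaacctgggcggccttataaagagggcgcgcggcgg
Cyp2a5: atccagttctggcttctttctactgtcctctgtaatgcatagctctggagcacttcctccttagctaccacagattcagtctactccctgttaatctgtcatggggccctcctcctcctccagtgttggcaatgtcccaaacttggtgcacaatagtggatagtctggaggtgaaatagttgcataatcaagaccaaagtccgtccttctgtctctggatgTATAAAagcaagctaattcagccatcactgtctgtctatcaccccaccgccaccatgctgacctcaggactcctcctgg
Cyp20a1: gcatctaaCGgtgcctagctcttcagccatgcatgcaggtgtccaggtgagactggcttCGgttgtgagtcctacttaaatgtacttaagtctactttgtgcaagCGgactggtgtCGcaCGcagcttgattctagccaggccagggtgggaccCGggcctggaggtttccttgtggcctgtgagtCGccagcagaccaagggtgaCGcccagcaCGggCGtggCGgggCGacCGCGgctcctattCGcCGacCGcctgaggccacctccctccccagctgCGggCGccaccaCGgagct
Cyp2b10: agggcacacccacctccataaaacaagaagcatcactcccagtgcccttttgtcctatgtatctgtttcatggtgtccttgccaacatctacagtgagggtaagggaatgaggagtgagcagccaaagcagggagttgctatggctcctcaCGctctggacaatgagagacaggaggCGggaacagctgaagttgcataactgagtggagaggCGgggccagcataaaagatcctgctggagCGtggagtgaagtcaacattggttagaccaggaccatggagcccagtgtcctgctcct

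The exact spelling marked in Cyp26a1, AGTTCA repeated with 5 bases between, occurred in 1 member, Cyp26a1, and in 7 of 27025 promoters of all genes (0.0259%), searched on both strands. Other spellings of a retinoic acid response element were not searched, so these numbers do not show how common such elements are. TATAAA occurred in 30 of 70 members (42.9%), against 14.2% of all promoters, also on both strands. The median number of CG pairs was 3 in members and 7 in all promoters, and 18 of 70 members (25.7%) held at least 5, against 61.7% of all promoters. Cyp20a1 held 20 CG pairs, Cyp2b10 held 4 and Cyp2a5 held 2. These are matches of letters only.

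Of the 90 genes, 75 had at least 1 count, 41 had at least 10, and 15 were at 0 in all 200 cells. The members together had 4142 counts. Cyp26a1 alone held 18.5% of these, and the 12 leading members held 65.9%. Counts were seen in all 4 groups for 21 members, in KO cells only for 8 and in WT cells only for 16. The same was not counted over all genes, and the WT group had more total counts than the KO group in each gate. These 3 numbers are therefore not read as a difference between genotypes. The members at 0 included all of Cyp11a1, Cyp11b1, Cyp11b2 and Cyp21a1, which make steroids in the adrenal cortex, Cyp46a1, the cholesterol hydroxylase of brain, and Cyp2r1, a vitamin D hydroxylase. With 3 counts as the floor, a count of 0 allows up to 0.996 CPM in KO GFPhi, 0.865 CPM in WT GFPhi, 1.62 CPM in KO GFPlo and 1.33 CPM in WT GFPlo. The exact Poisson intervals used here for levels end higher for 0 counts, at 1.22, 1.06, 1.997 and 1.63 CPM in that order.

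The summed P450 level over both dates was lower in KO than in WT cells in both gates, and less clearly so on the first date alone. It was 307 CPM (288 to 328) in KO GFPhi against 546 CPM (522 to 572) in WT GFPhi, a ratio of 0.563 (0.520 to 0.609). It was 272 CPM (249 to 297) in KO GFPlo against 362 CPM (338 to 388) in WT GFPlo, a ratio of 0.750 (0.670 to 0.839). On the first and second date the KO to WT ratio was 0.712 (0.633 to 0.799) and 0.493 (0.442 to 0.550) in GFPhi. In GFPlo it was 0.876 (0.746 to 1.03) and 0.694 (0.590 to 0.816), so the first-date interval includes 1. On the first date 1 WT GFPhi cell held 326 of the 858 counts. The median cell of that date had 530 CPM in KO GFPhi against 306 CPM in WT GFPhi, the opposite order. The first-date ratio was not computed without that cell. Over both dates, without leukocyte-marked cells, the KO to WT ratio was 0.470 in GFPhi and 0.774 in GFPlo. Without Cyp26a1, which moved with the date, the GFPhi ratio was 0.452, with 0.449 and 0.486 on the 2 dates. Single cells ranged widely: the median cell had 224 CPM in KO GFPhi (0 to 1643), 308 CPM in WT GFPhi (0 to 2872), 187 CPM in KO GFPlo (0 to 2014) and 251 CPM in WT GFPlo (0 to 2533). The ranges overlap, although the highest WT GFPhi cells lie above every KO GFPhi cell. In WT GFPhi 1 cell held 17.2% of the P450 counts, and leaving out any single cell kept the GFPhi ratio over both dates between 0.486 and 0.657.

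**Figure D1:**
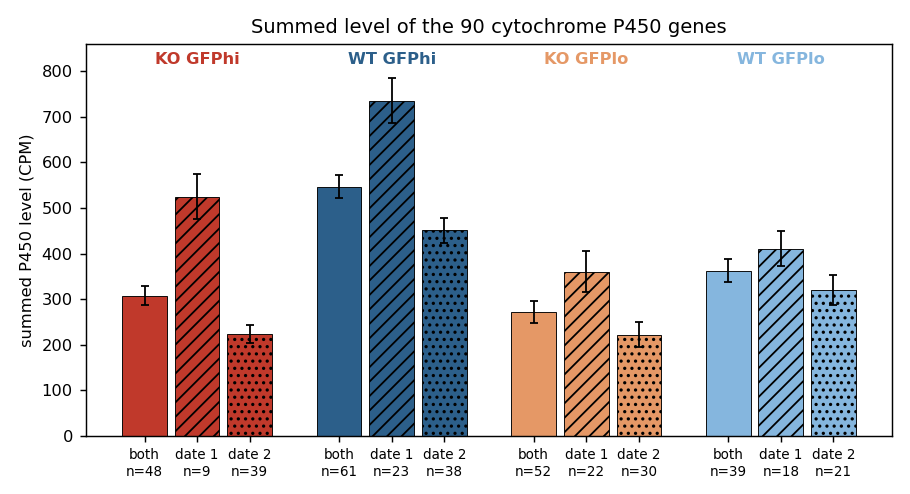
Summed level of the 90 P450 genes in CPM (vertical axis) for each group over both sort dates and on each date, with exact Poisson 95% intervals and the number of cells. KO bars stand below WT bars in each gate, 307 against 546 CPM in GFPhi and 272 against 362 CPM in GFPlo, and bars of the first date stand above those of the second in each group.

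By function, the sum of drug-metabolising members was lower in KO GFPhi cells on both dates, also without its highest cell, though not in each of its subfamilies. The sums of fatty acid, sterol and retinoid members moved with the date or with 1 cell. The xenobiotic group, 46 genes of families that oxidise drugs and other foreign compounds, summed to 94.96 CPM in KO GFPhi against 231 CPM in WT GFPhi, a ratio of 0.411 (0.358 to 0.471), with 0.493 and 0.377 on the 2 dates and 0.464 without the highest cell. The fatty acid and eicosanoid group, 22 genes, had 73.7 CPM in KO GFPhi against 154 CPM in WT GFPhi, a ratio of 0.479 (0.407 to 0.561), with 0.349 and 0.5997 on the 2 dates. In WT GFPhi 1 cell of the first date held 205 of the 534 counts, and without it the ratio was 0.752 (0.631 to 0.894) over both dates and 1.61 on the first. Cholesterol and bile acid members, 6 genes, had 28.9 CPM in KO GFPhi against 31.7 CPM in WT GFPhi, a ratio of 0.911 (0.679 to 1.22), with 1.26 and 0.728 on the 2 dates and 0.578 without 1 KO cell. Vitamin D and retinoid members, also 6 genes and almost all Cyp26a1, had 105 CPM in KO GFPhi against 100.3 CPM in WT GFPhi, a ratio of 1.05 (0.895 to 1.22). That ratio joins opposite dates, 2.72 (2.12 to 3.52) on the first and 0.529 (0.423 to 0.658) on the second, and it was 0.639 without 1 KO cell of 139 counts.

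Of the 32 members with at least 10 counts over the GFPhi pair, 17 were at least 2-fold lower in KO, 5 were at least 2-fold higher and 10 lay between. Over all 15033 genes counted the same way, 29.5% were at least 2-fold lower and 20.2% at least 2-fold higher. The median member ratio was 0.334, and that of all genes was 0.912. In the xenobiotic group 10 of 16 counted members were lower and 2 were higher. In the fatty acid group 4 of 8 were lower and 2 higher. Without leukocyte-marked cells 19 members were lower and 6 higher, and the all-gene shares were not computed for that setting. Most single members rest on few cells, however: without its highest cell, each of 9 of the 17 lower members had under 10 counts left in the pair, and the other 8 stayed at least 2-fold lower. Of the 5 higher members 1 stayed at least 2-fold higher.

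Summing the members of each subfamily gives larger counts per value. The Cyp2d subfamily, whose human relative CYP2D6 oxidises many medicines, had 2 counts (0.664 CPM) in KO GFPhi against 185 counts (53.3 CPM) in WT GFPhi. The ratio was 0.0124 (0.0015 to 0.0456), with 0.0124 and 0.0142 on the 2 dates and 0.0272 without the cell with the most counts, which left 1 KO against 7 WT counts on the first date. It was seen in 2 of 48 KO GFPhi cells and in 7 of 61 WT GFPhi cells. The Cyp2j subfamily of arachidonic acid epoxygenases had 4.65 CPM in KO GFPhi against 81.0 CPM in WT GFPhi, with date ratios of 0.0393 and 0.118. In WT GFPhi 1 cell held 205 of its 281 counts, and the ratio without it was 0.205, with 6 KO against 4 WT counts left on the first date. Cyp2b, phenobarbital-inducible enzymes, had 1.66 CPM in KO GFPhi against 24.8 CPM in WT GFPhi, a ratio of 0.0669 and 0.202 without the highest cell. That cell, of WT GFPhi and the first date, held 59 of the 86 WT counts. Without it 0 KO against 1 WT count were left on the first date, and 5 against 26 on the second. Cyp3a, the subfamily of the main human drug-metabolising enzyme CYP3A4, had 5.98 CPM in KO GFPhi against 37.2 CPM in WT GFPhi, a ratio of 0.161 (0.0923 to 0.264) with 0.144 and 0.164 on the 2 dates and 0.247 without the highest cell, which held 47 of the WT counts. Cyp3a was seen in 13 of 48 KO GFPhi cells, with 18 counts in all, and in 11 of 61 WT GFPhi cells, with 129 counts. The Cyp2c and Cyp2a subfamilies were not lower once their highest cell, in WT for both, was left out. Cyp2c had 18.3 CPM in KO GFPhi against 28.3 CPM in WT GFPhi, a ratio of 0.646. Without that cell the ratio was 1.56 (1.02 to 2.41), with 29 KO against 5 WT counts on the first date. Cyp2a had 46.8 CPM in KO GFPhi against 66.6 CPM in WT GFPhi, a ratio of 0.703, and 1.09 (0.860 to 1.39) without that cell.

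The Cyp4f subfamily sum was higher in KO, but parts of this difference rested on few cells. These enzymes, omega-hydroxylases of fatty acids and leukotrienes, had 53.1 CPM in KO GFPhi against 28.3 CPM in WT GFPhi, a ratio of 1.88 (1.45 to 2.44) with 2.13 and 1.78 on the 2 dates. In GFPlo they had 63.9 CPM in KO against 18.1 CPM in WT, a ratio of 3.52 (2.45 to 5.16) with 3.21 and 4.01 on the 2 dates. Without leukocyte-marked cells the ratios were 1.51 in GFPhi and 2.52 in GFPlo. The highest cell held 41 counts in GFPhi and 27 in GFPlo, and without it the ratios were 1.52 and 2.82. In GFPhi the first-date ratio was then 0.683, so the higher level there rested on that cell. Its members did not move alike. Cyp4f16 carried most counts and is described further on. Cyp4f13 had 16.6 CPM in KO GFPhi against 2.02 CPM in WT GFPhi, but 40 of its 50 KO GFPhi counts were in 1 cell and the ratio without that cell was 1.794. Cyp4f18, which inactivates leukotriene B4 in myeloid cells, had 54 counts in all, of which 51 were in 3 leukocyte-marked KO GFPlo cells. All 3 cells were of the second date, so the second-date GFPlo ratio of 4.01 includes them. That ratio was not computed without them. Over both dates the other 7 members had 67 counts in KO GFPlo against 41 in WT GFPlo.

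**Figure D2:**
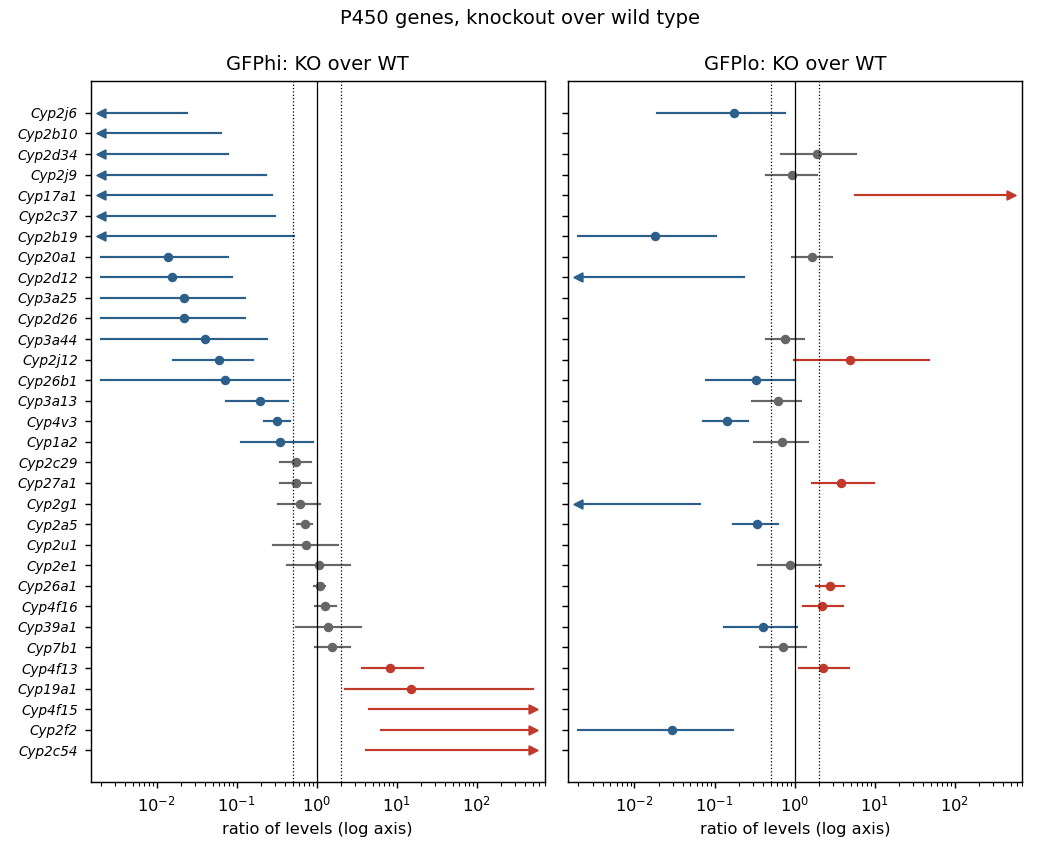
Ratio of the KO to the WT level (horizontal log axis) in GFPhi cells (left) and GFPlo cells (right) for the 32 members with at least 10 counts over the GFPhi pair, with exact binomial 95% intervals. Dotted lines mark 2-fold, blue points are at least 2-fold lower, red points at least 2-fold higher, and arrowheads stand at the edge where 1 group had 0 counts. In GFPhi 17 members lie at or left of the lower dotted line and 5 at or right of the upper one.

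In GFPlo cells the summed KO to WT ratio was nearer to 1 than in GFPhi cells, and members lay on both sides, while the xenobiotic sum was again lower in KO. Of 30 members with at least 10 counts over the pair, 12 were at least 2-fold lower in KO and 8 at least 2-fold higher, against 27.7% lower and 23.8% higher over 13882 genes. Without its highest cell, the call was kept by 4 of the 12 lower and 2 of the 8 higher members. The median ratio was 0.745 for members and 0.962 for all genes. The xenobiotic group had 76.9 CPM in KO GFPlo against 209 CPM in WT GFPlo, a ratio of 0.367 (0.302 to 0.444), and 7 of its 14 counted members were lower and 1 was higher. Date ratios were 0.408 and 0.345. The fatty acid group had 91.5 CPM in KO GFPlo against 92.5 CPM in WT GFPlo. Cyp2b had 1.62 CPM in KO GFPlo against 34.1 CPM in WT GFPlo and Cyp2d had 6.50 CPM in KO GFPlo against 42.5 CPM in WT GFPlo. Without the highest cell, in WT for both, the Cyp2b ratio was 0.113 in place of 0.0477 and the Cyp2d ratio 0.361 in place of 0.153, and on the first date Cyp2b had 3 counts in KO against 7 in WT. Cyp2d was at 0 in WT GFPlo on the second date, when it was detected in KO GFPlo. Vitamin D and retinoid members had 48.2 CPM in KO GFPlo against 24.3 CPM in WT GFPlo, with date ratios on opposite sides of 1 (3.76 and 0.351) and a ratio of 1.06 without 1 KO cell, against 1.98 with it.

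Between the gates, the summed level was higher in GFPhi than in GFPlo cells of WT mice, while in KO mice the 2 gates were close. In WT it was 546 CPM in GFPhi against 362 CPM in GFPlo, a ratio of 1.51 (1.39 to 1.64), with date ratios of 1.80 and 1.41. In KO it was 307 CPM in GFPhi against 272 CPM in GFPlo, a ratio of 1.13 (1.01 to 1.26), with date ratios of 1.46 and 1.003. The KO ratio fell below 1 without leukocyte-marked cells (0.915), without Cyp26a1 (0.903), without 1 cell (0.978) and without 1 library pool (0.927). Of 33 members counted in WT, 16 were at least 2-fold higher and 10 at least 2-fold lower in GFPhi, against 27.9% higher and 24.2% lower over 15064 genes. Without its highest cell, the call was kept by 4 of the 16 higher and 2 of the 10 lower members, and 1 of the higher and 2 of the lower turned round. Of 29 members counted in KO, 9 were higher and 11 lower, against 24.8% higher and 26.2% lower over 13898 genes, and without its highest cell the call was kept by 3 of the 9 and 4 of the 11. By role, vitamin D and retinoid members had 100.3 CPM in WT GFPhi against 24.3 CPM in WT GFPlo, a ratio of 4.12 (3.10 to 5.59) with 2.56 and 6.42 on the 2 dates. The xenobiotic sum was 231 CPM in WT GFPhi against 209 CPM in WT GFPlo, a ratio of 1.10 (0.984 to 1.24) with dates on opposite sides of 1. Steroid hormone members had 18 counts in WT GFPhi, in 3 cells, against 0 in WT GFPlo. Of the 18 counts 14 were in 1 cell, and 17 were of the second date.

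Few members kept their direction on both dates. The same was not counted over all genes, so this is not read as a trait of P450 genes. With at least 10 counts over the pair on each date, 13 members could be compared for KO against WT in GFPhi, and 5 were below 1 on both dates, 1 was above 1 on both and 7 changed sides. In GFPlo 10 could be compared, of which 2 were below, 2 above and 6 changed sides. For GFPhi against GFPlo in WT, 16 could be compared, with 7 above 1 on both dates, 0 below and 9 on opposite sides. In KO 7 could be compared, with 2 above, 1 below and 4 on opposite sides.

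Cyp26a1, on chromosome 19 (37697798 to 37701536, plus strand), was the highest and most widely detected member. It had 104 CPM (92.4 to 116) in KO GFPhi, 95.2 CPM (85.2 to 105.99) in WT GFPhi, 46.01 CPM (36.8 to 56.9) in KO GFPlo and 16.8 CPM (11.9 to 23.1) in WT GFPlo. It was seen in 25 of 48, 30 of 61, 8 of 52 and 6 of 39 cells in that order of groups. The gate divided it more than the genotype: in GFPhi it was held by 52.1% of KO and 49.2% of WT cells, against 15.4% of GFPlo cells of either genotype. At an equal depth of 10000 counts per cell the expected shares were 32.8% in KO GFPhi, 38.1% in WT GFPhi, 11.5% in KO GFPlo and 9.92% in WT GFPlo. Its KO to WT ratio in GFPhi was 1.09 (0.930 to 1.27) over both dates, but 3.23 on the first date and 0.518 on the second, and 0.658 without the highest cell, which held 139 of the 312 KO GFPhi counts. On the second date GFPlo cells held almost none, with 3.42 CPM in KO and 2.56 CPM in WT, and GFPhi cells held 56.03 CPM in KO and 108 CPM in WT. In GFPlo the KO to WT ratio of 2.74 (1.85 to 4.13) turned to 0.395 when 1 library pool was left out. The GFPhi to GFPlo ratio was above 1 on both dates in both genotypes, with 1.88 and 16.4 in KO and 2.16 and 42.3 in WT. Without the KO GFPhi cell of 139 counts, the first-date KO ratio of the vitamin D and retinoid members together was 0.714. Its relatives Cyp26b1 and Cyp26c1, which also degrade retinoic acid, had 36 and 1 counts in all.

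Cyp2a5, on chromosome 7 (26835305 to 26843548, plus strand), came second. It had 46.8 CPM (39.4 to 55.2) in KO GFPhi against 66.0 CPM (57.8 to 75.2) in WT GFPhi, a ratio of 0.709 with 0.766 and 0.821 on the 2 dates. The groups differ in their split of cells over the dates, and the ratio over both dates lay below both date ratios. In GFPlo it had 7.58 CPM in KO against 22.6 CPM in WT, a ratio of 0.336 with 0.466 and 0.251 on the 2 dates. It was seen in 14 KO GFPhi, 18 WT GFPhi, 5 KO GFPlo and 9 WT GFPlo cells. The share of GFPhi cells with it was thus nearly equal, 29.2% in KO and 29.5% in WT. Without the highest cell, a WT GFPhi cell with 86 counts, the GFPhi ratio was 1.11. Of the 40-base stretches in the last 500 bases of its transcripts, 35.8% also occur in other genes, mostly Cyp2a4, so reads of this pair cannot be split with certainty. Cyp2a4 was given 1 count.

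Cyp20a1, on chromosome 1 (60343323 to 60388060, plus strand), was nearly absent from KO GFPhi cells. It had 1 count (0.332 CPM) in KO GFPhi against 84 counts (24.2 CPM, 19.3 to 29.99) in WT GFPhi, a ratio of 0.0137 (0.000343 to 0.0785). It was detected in 1 of 48 KO GFPhi cells and in 12 of 61 WT GFPhi cells. The KO level was lower on both dates, 1.17 CPM in KO against 53.1 CPM in WT on the first and 0 in KO against 9.56 CPM in WT on the second. In GFPlo the order was different, with 17.3 CPM (11.8 to 24.5) in KO against 10.6 CPM (6.80 to 15.8) in WT, and the dates were opposite.

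Cyp4v3, on chromosome 8 (45304944 to 45333216, minus strand), is the mouse counterpart of CYP4V2, a fatty acid hydroxylase mutated in a human crystalline eye dystrophy. It had 12.9 CPM in KO GFPhi against 40.1 CPM in WT GFPhi, a ratio of 0.323 (0.220 to 0.464), and 6.50 CPM in KO GFPlo against 45.1 CPM in WT GFPlo, a ratio of 0.144 (0.0720 to 0.263). In GFPhi that difference came from the second date, with 16.7 CPM in KO against 59.96 CPM in WT. On the first date both were near 0, with 3.52 CPM in KO against 0.857 CPM in WT. In GFPlo it came from the first date, with 1 count in KO against 84 in WT, and on the second the ratio was 0.613 (0.262 to 1.37). Of its counts 25.7% lay in leukocyte-marked cells, and without those cells it was at 0 in KO GFPlo. Its exons overlap Gm45753 on the same strand.

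Cyp4f16, a fatty acid omega-hydroxylase by family, had 30.5 CPM (24.6 to 37.5) in KO GFPhi against 23.9 CPM (19.1 to 29.7) in WT GFPhi, in 14 and 13 cells. In GFPlo it had 20.6 CPM in KO against 9.29 CPM in WT, with date ratios of 14.4 and 0.118. Cyp27a1, the mitochondrial sterol hydroxylase that starts the acidic bile acid pathway, had 10.96 CPM in KO GFPhi against 19.9 CPM in WT GFPhi and 13.5 CPM in KO GFPlo against 3.54 CPM in WT GFPlo. It was present in 10 of 48, 13 of 61, 11 of 52 and 5 of 39 cells, so between 12.8% and 21.3% of each group, and in 14.3% of leukocyte-marked cells. Its KO to WT ratio was 0.551 (0.352 to 0.845) in GFPhi, with 0.298 and 1.07 on the 2 dates, and 3.82 (1.67 to 9.81) in GFPlo. Cyp7b1, an oxysterol hydroxylase, had 13.9 CPM in KO GFPhi against 8.94 CPM in WT GFPhi, and its ratio of 1.56 became 0.342 without 1 KO GFPhi cell that held 33 of 42 counts.

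Several members were high in a handful of cells and absent elsewhere. Cyp2j6 had 0 counts in KO GFPhi against 180 counts (51.9 CPM) in WT GFPhi, of which 164 were in 1 cell, and its level was at least 52.1-fold lower in KO with 3 counts as the floor. The exact interval of the ratio ends at 0.0238, a less extreme limit, and without that cell 16 counts remained in WT GFPhi. Cyp2b10 had 0 counts in KO GFPhi against 68 in WT GFPhi, 59 of them in 1 cell. Cyp2g1, an enzyme of olfactory mucosa, had 18 counts in KO GFPhi against 34 in WT GFPhi, and 0 in KO GFPlo against 70 in WT GFPlo, where 64 were in 1 cell. Cyp2f2, the naphthalene-activating enzyme of lung club cells, had 22 counts in KO GFPhi against 0 in WT GFPhi, and 1 in KO GFPlo against 42 in WT GFPlo. The direction for Cyp2f2 thus differed between the gates, in 2 KO GFPhi and 6 WT GFPlo cells. Cyp2b19, an epidermal arachidonic acid epoxygenase, had 1 count in KO GFPlo against 68 in WT GFPlo. Cyp2c29, a liver epoxygenase, had 31 counts in KO GFPhi against 65 in WT GFPhi, with dates in opposite directions. Cyp2d12 had 1 count in KO GFPhi against 75 in WT GFPhi, in 4 cells.

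**Figure D3:**
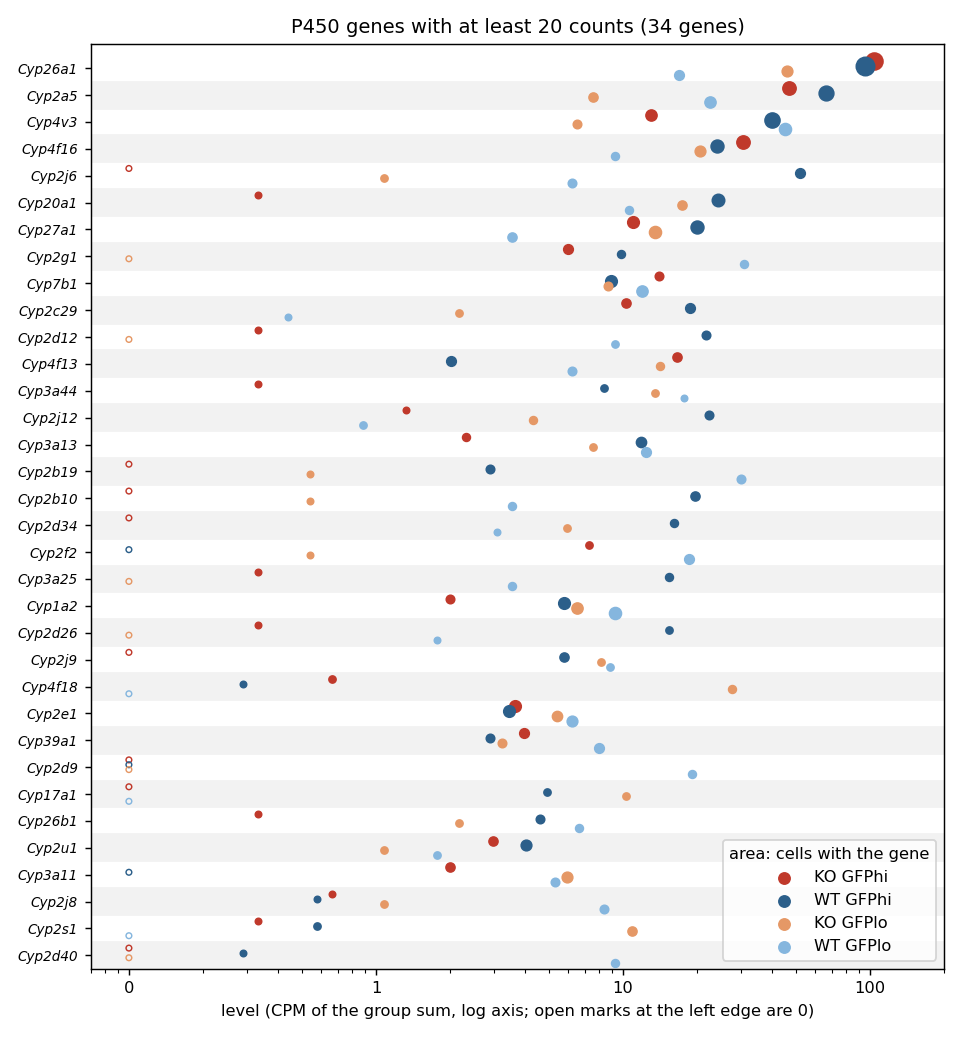
Level in CPM (horizontal log axis) of the 34 members with at least 20 counts in all, ordered by counts, in each group; the area of a point grows with the number of cells that hold the gene, and open points at the left edge are 0. Cyp26a1 leads in all groups but WT GFPlo, where Cyp4v3 reaches 45.1 CPM, and several members with WT GFPhi points above 10 CPM have their KO GFPhi point at the left edge.

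Mouse relatives of human P450 autoantigens differed in how they were represented. Cyp1a2, whose human form is a target in autoimmune polyendocrine syndrome with hepatitis, had 1.99 CPM in KO GFPhi, 5.77 CPM in WT GFPhi, 6.50 CPM in KO GFPlo and 9.29 CPM in WT GFPlo. Its 59 counts were spread over 34 cells, with a median of 1 or 1.5 counts per positive cell and 6 at most. The KO to WT ratio was 0.345 (0.114 to 0.892) in GFPhi, with 0.304 and 0.388 on the 2 dates, and 32.2% of all its counts were in leukocyte-marked cells. The Cyp2d subfamily, related to the liver antigen CYP2D6, is described above and was lower in KO in both gates over both dates. In GFPlo 56 of its 96 WT counts were in 1 cell. On the second date it was at 0 in WT GFPlo but detected in KO GFPlo. Cyp17a1, the steroid 17-hydroxylase of adrenal and gonad, had 36 counts in 4 cells, 2 of KO GFPlo and 2 of WT GFPhi. Cyp11a1 and Cyp21a1, whose human forms are adrenal autoantigens, were at 0 in every cell. Cyp19a1, the aromatase that makes oestrogens, had 13 counts in 5 KO GFPhi cells against 1 count in WT GFPhi, all of the KO counts on the second date.

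Detection of single members was sparse and often rested on 1 cell. Among the 41 members with at least 10 counts, the median member was seen in 9 cells (1 to 69), and its highest cell held 38.9% of its counts. In 14 of the 41 over 50% of counts were in 1 cell. Cyp2d9, a male-type steroid hydroxylase of mouse liver, had 86.0% of its 43 counts in 1 WT GFPlo cell, and Cyp2c54 had all 15 counts in 1 KO GFPhi cell. At the other end, Cyp2e1, the ethanol-inducible liver enzyme, had 47 counts in 35 cells, with 3.65 CPM in KO GFPhi, 3.46 CPM in WT GFPhi, 5.41 CPM in KO GFPlo and 6.19 CPM in WT GFPlo, which do not differ beyond their counting intervals. Leukocyte-marked cells serve as a comparison for such low shares, with a median of 22501 counts per cell against 30182 in the other cells. Cyp2e1 was seen in 6 of 35 leukocyte-marked cells (17.1%) against 17.6% of the other 165 cells, and Cyp1a2 in 10 of 35 (28.6%) against 14.5%. Cyp4v3 was seen in 25.7% of marked cells against 20.6% of the others, Cyp7b1 in 17.1% against 12.7% and Cyp27a1 in 14.3% against 20.6%. For Cyp2e1, Cyp1a2, Cyp4v3 and Cyp7b1 the shares in the other cells were near or below those in marked cells, and they are not read as epithelial expression. Cyp27a1 had a larger share in the other cells, but was seen in only 5 marked cells, and it is not read either way. Marked cells are not a blank for these genes: the WT GFPhi cell with the most Cyp4v3, 40 counts, was itself leukocyte-marked. Cyp26a1 was seen in 4 of 35 leukocyte-marked cells (11.4%) against 39.4% of the others, and Cyp2a5 in 3 of 35 (8.57%) against 26.1%. Shares were also higher in marked cells for Cyp2d12 (8.57% against 2.42%), Cyp2b10 (8.57% against 3.64%) and Cyp3a25 (5.71% against 3.03%). Some members of the same subfamilies went the other way, such as Cyp2d26 (0% against 2.42%), Cyp2b19 (2.86% against 4.85%) and Cyp3a13 (0% against 10.9%).

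**Figure D4:**
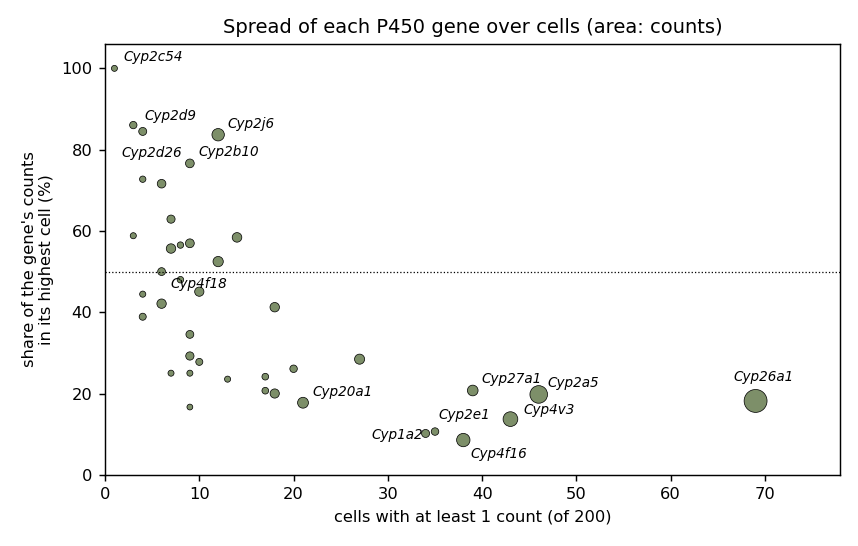
For the 41 members with at least 10 counts, the number of cells with the gene (horizontal axis, of 200) against the percentage of its counts held by its highest cell (vertical axis); point area grows with counts. Cyp26a1 lies far right with 69 cells and 18.2% in its highest cell, while 14 members lie above the dotted line at 50%.

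Few P450 genes were detected per cell, and the means were lower in KO, with counting intervals that overlap. At 10000 counts per cell the expected number of members was 1.49 in KO GFPhi (1.15 to 1.90), 2.09 in WT GFPhi (1.72 to 2.51), 1.41 in KO GFPlo (1.09 to 1.787) and 2.06 in WT GFPlo (1.60 to 2.63). These means are over 44, 55, 48 and 32 cells in that order, since 4, 6, 4 and 7 shallower cells were left out. Without thinning the means were 3.54, 4.26, 2.67 and 4.05. The single cells overlap widely, with thinned values of 0 to 4.40 in KO GFPhi, 0 to 5.43 in WT GFPhi, 0 to 4.58 in KO GFPlo and 0 to 5.79 in WT GFPlo. On the first date alone KO GFPhi cells had 2.27, against 2.10 in WT GFPhi cells, and on the second 1.32 against 2.08, so the GFPhi difference was seen on 1 of 2 dates. In GFPlo it was 1.84 in KO against 2.46 in WT on the first date and 1.10 in KO against 1.76 in WT on the second. No P450 count at all was found in 3 KO GFPhi, 5 WT GFPhi, 8 KO GFPlo and 2 WT GFPlo cells.

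**Figure D5:**
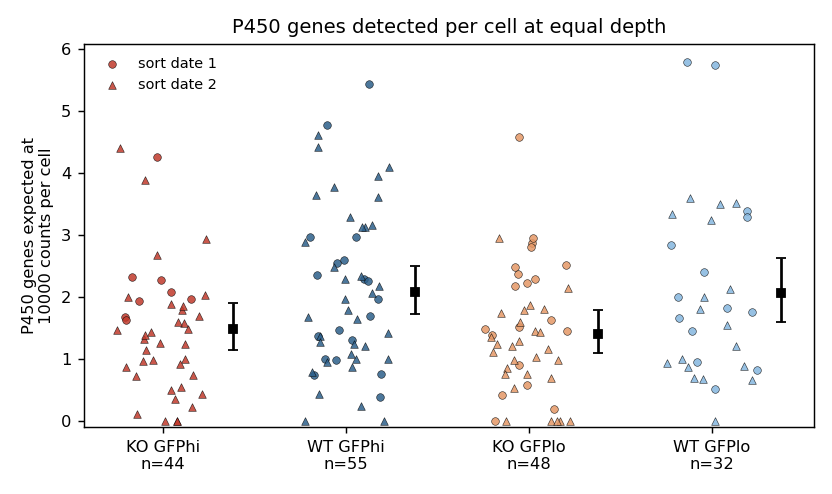
Expected number of P450 genes per cell at 10000 counts (vertical axis) for each cell with at least that depth, by group and sort date; black squares are group means with 95% Poisson intervals. The means are 1.49 in KO GFPhi, 2.09 in WT GFPhi, 1.41 in KO GFPlo and 2.06 in WT GFPlo, and the clouds of cells overlap.

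Pairs of members were seldom found in the same cell, whether or not they shared a gene cluster. The 90 genes include 8 clusters of at least 3 members with gaps under 1 Mb, such as 14 Cyp2c genes on chromosome 19 (39007019 to 40187333) and 8 Cyp2d genes on chromosome 15 (82370527 to 82794294). Among 36 members seen in at least 5 cells, 40 pairs shared a cluster. Of these 19 were never in the same cell, and the median share of cells with both among cells with either was 1.87%. For the 590 other pairs it was 4%, and 191 were never together. The means were closer, 4.83% for pairs of a cluster and 5.37% for other pairs, and the 28 pairs of one subfamily had a median of 4.65% and a mean of 6.04%. The pairs with the most shared cells joined the leading members: 23 of 92 cells with Cyp26a1 or Cyp2a5 held both, as did 22 of 85 with Cyp26a1 or Cyp4f16 and 19 of 66 with Cyp27a1 or Cyp2a5. Pairs of deep cells and abundant genes are seen together more readily, so these shares are a description. Within clusters the pair with the most shared cells was Cyp4f13 and Cyp4f16, with 7 of 49 cells. The chromosome 7 cluster of Cyp2a, Cyp2b, Cyp2f, Cyp2g, Cyp2s and Cyp2t genes (25802475 to 27158668) was seen in 80 cells, and 21 of them held at least 2 of its 13 members. The WT GFPhi cell with the highest P450 level, 2872 CPM, held 14 members, among them Cyp2j6 at 50.3% of its P450 counts.

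Near copies limit how firmly single names can be read. In 24 of the 90 members over 20% of the 40-base stretches of the transcript end occur in another gene. Among them were Cyp2d9 (39.98%), Cyp2d40 (40.3%), Cyp2d26 (29.9%), Cyp2d12 (26.9%), Cyp3a44 (43.8%), Cyp3a25 (27.7%) and Cyp2c54 (35.1%). Values of Cyp2d, Cyp3a and Cyp2c members are therefore safer as subfamily sums. Exons of Cyp2f2 overlap Gm15883 on the opposite strand, and those of Cyp2c29 overlap Cyp2c53-ps.

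The partners that feed electrons to P450 enzymes were not lower as a group in KO GFPhi cells. The 9 measured redox partners summed to 1112 CPM in KO GFPhi against 864 CPM in WT GFPhi, and 1 was at least 2-fold lower and 3 were higher. Por, the reductase that serves all microsomal P450 enzymes, had 37.8 CPM in KO GFPhi, 6.92 CPM in WT GFPhi, 1.62 CPM in KO GFPlo and 8.40 CPM in WT GFPlo, and was higher in KO GFPhi on both dates (24.6 and 43.1 CPM in KO against 3.43 and 8.69 CPM in WT). Haem synthesis genes, 8 in all, summed to 316 CPM in KO GFPhi against 326 CPM in WT GFPhi, with 3 lower and 1 higher. Over all genes 29.5% were at least 2-fold lower and 20.2% higher, and counts over lists this short are not read as a difference from those shares. Of the 17 listed P450 regulators 14 had counts, and 11 could be compared in GFPhi, of which 6 were lower and 2 higher in KO. Nr1i2, the pregnane X receptor that induces Cyp3a genes in liver, was at 0 in all cells. Rara, a retinoic acid receptor, had 16.6 CPM in KO GFPhi against 86.8 CPM in WT GFPhi and 11.9 CPM in KO GFPlo against 53.97 CPM in WT GFPlo. Vdr, the vitamin D receptor, had 127 CPM in KO GFPhi against 128 CPM in WT GFPhi, but the dates ran in opposite directions, with 12.9 and 172 CPM in KO against 293 and 44.8 CPM in WT. Hepatocyte markers, of which 7 of 8 had counts, summed to 3.98 CPM in KO GFPhi against 192 CPM in WT GFPhi, and 18.9 CPM in KO GFPlo against 57.1 CPM in WT GFPlo. In WT GFPhi most of this was Fgb, with 125 CPM in 7 cells, and Tat was at 0 in every cell. Single cells reached 617.7 CPM of these markers in KO GFPhi and 12530 CPM in WT GFPhi. The part of these markers in the P450 differences was not tested.

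Leukocyte-marked cells had a lower P450 level than the other cells of their group. Their P450 level was 46.9 CPM in KO GFPhi, 217 CPM in WT GFPhi, 167 CPM in KO GFPlo and 97.2 CPM in WT GFPlo. The remaining cells had 313 CPM (293 to 334) in KO GFPhi, 667 CPM (636 to 699) in WT GFPhi, 342 CPM (309 to 379) in KO GFPlo and 442 CPM (412 to 475) in WT GFPlo. Of the 41 members with at least 10 counts, Cyp4f18 had the highest share of its counts in them, 94.4%, followed by Cyp2s1 with 69.6%. What part these cells have in other members' values was not tested beyond the values given without them.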

How the data were processed

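Each gene's counts in each cell are whole numbers and were deposited by the authors with no scaling. Tools named in the submitters' processing notes, with no role or order stated, are HTSeq, SAMtools 0.1.19, Picard 1.79, TopHat and TopHat2, and the build named there is mm10. Whether molecular identifiers were collapsed is not given in the sources used here, and a cell's total exceeded the identifier number of the metadata in 40 cells.

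All 200 cells were used, with no cell filter and no doublet step, and 0 pairs of cells were identical. The 12 library pools shared all 30 primers, and 0 columns were without a sample. Counts were summed per group. A member was called at 2-fold with at least 10 counts over the pair, and a fold against 0 used a floor of 3 counts over the group. Detection at 10000 counts is the expectation of drawing counts without replacement. Named are the 12 leading members, relatives of autoantigens, up to 8 members each way per comparison with at least 20 counts in at least 3 cells and at most 50% in 1 cell, subfamilies with at least 50 counts, and partners or regulators with at least 50 counts. Other genes named, such as Cyp2e1, Cyp4f18, Cyp19a1, Cyp26b1, Nr1i2 and Fgb, were chosen after their values were seen. Of the regulators that rule names, 1 is not reported here. Members and lists were chosen with earlier results of these data known.

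Gene positions came from GENCODE M21 on GRCm38. Multiply aligned reads made up 12.1% to 13.7% of mapped reads per group. Factors from edgeR 4.0.16 (R 4.3.3, TMM) served as a scaling alternative. The remaining steps ran in Python 3.11.15 with scipy 1.17.1, pandas 2.3.3, numpy 2.4.6 and, for plots, matplotlib 3.10.9. The fold rule and the thinning were tested on simulated data.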

Additional observations from a re-analysis of the deposited data

Results flagged for a closer look

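Members of 2 subfamilies and 1 role group ran in opposite directions between the gates in the 2 genotypes, on both sort dates. The difference between genotypes was not tested, and the choice of these from all subfamilies and roles was made by that pattern. For Cyp2j, the GFPhi to GFPlo ratio in KO was 0.597 on the first date and 0.160 on the second, against 6.50 and 1.22 in WT. Without the WT GFPhi cell that holds 205 Cyp2j counts, the first-date WT ratio was 0.138, so the pattern was lost on that date, and without that cell's library pool the WT ratio was 0.877 over both dates. For Cyp4f it was 0.917 and 0.805 in KO, against 1.38 and 1.81 in WT. The KO ratio of Cyp4f over both dates, 0.832, has an interval that includes 1 (0.651 to 1.06). Its second-date KO ratio includes the 51 Cyp4f18 counts of 3 leukocyte-marked KO GFPlo cells, all of that date. Without Cyp4f18, the other 7 members had 158 counts in KO GFPhi against 67 in KO GFPlo over both dates. With group totals of 3011900 and 1847240, that KO ratio was above 1, so the KO side of the pattern was lost. The Cyp4f18 counts also enter the next group. For the fatty acid and eicosanoid members together the GFPhi to GFPlo ratio was 0.892 and 0.766 in KO, against 1.72 and 2.00 in WT. The first-date interval in KO includes 1 (0.616 to 1.29), and without the same WT GFPhi cell the first-date WT ratio was 0.374, so this pattern was lost too.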

How the results depend on the processing

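No paired analysis was possible because replicate numbers here only name cells in accession order, and no comparison had a test. The summed KO to WT ratio in GFPhi stayed below 1 in all alternatives run. It was 0.712 on the first date, 0.493 on the second, 0.470 without leukocyte-marked cells, 0.688 with ls primers only and 0.452 without Cyp26a1. With a cell or pool left out it was 0.486 to 0.657 over both dates, and this was not done within 1 date. In GFPlo it was 0.876 on the first date, 0.537 as a mean over cells and 0.653 without Cyp26a1, and 0.643 to 0.860 with a cell or pool left out. The WT ratio of GFPhi to GFPlo was 1.80 on the first date, 1.14 as a mean over cells and 1.31 without Cyp26a1, and 1.26 to 1.71 with a cell or pool left out. The KO ratio was 1.46 and 1.003 on the 2 dates, 1.35 with ls primers, 1.28 as a mean over cells, 0.915 without leukocyte-marked cells and 0.903 without Cyp26a1, and 0.927 to 1.32 (0.978 at the lowest for a cell) with a cell or pool left out. The cause was not tested. Leaving out Cyp26a1 or the highest cell of a member, subfamily or role group was chosen after seeing the data.

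All-gene shares were computed only for all cells with at least 10 counts over the pair. The counts of called members in this paragraph have no such share beside them and are not read as results about the members. With no minimum count, lower and higher members numbered 34 and 15 for KO against WT in GFPhi, 22 and 21 in GFPlo, 20 and 39 for GFPhi against GFPlo in WT, and 27 and 18 in KO. At that setting 1 count in 1 group is enough for a call. With at least 20 counts, 2 were higher for KO against WT in GFPhi, and 5 were lower and 4 higher between the KO gates. The GFPhi count of higher members was 3 to 6 with a cell or pool left out. On the second date 7 were lower in KO GFPlo, on the first date 4 were lower and 4 higher between the KO gates, and as means over cells 10 were higher in WT GFPhi. P450 genes per cell were 1.07, 2.02 and 3.54 in KO GFPhi at 5000 counts, 20000 counts and without thinning, 1.39, 3.16 and 4.26 in WT GFPhi, 0.869, 2.25 and 2.67 in KO GFPlo, and 1.35, 2.84 and 4.05 in WT GFPlo. On the first date they were 2.27 in KO GFPhi and 1.84 in KO GFPlo.

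For 84 results on members and subfamilies, 649 alternatives gave a ratio: 414 lay within the interval of the reported value, 214 outside it in the same direction or with no 2-fold difference at first, and 21 turned round. TMM factors left all 84 within their interval. KO to WT in GFPhi turned for Cyp3a13 on the second date (2.49) and Cyp4v3 on the first (4.11). With 1 pool left out at a time, KO to WT in GFPlo ran from 0.395 to 20.4 for Cyp26a1, 0.963 to 5.20 for Cyp4f13, 0.457 to 11.2 for Cyp4f16 and 0.930 to 3.37 for the Cyp2c subfamily. It also turned for Cyp4f13 with ls primers (0.775), Cyp4f16 on the second date (0.118) and Cyp2c as a mean over cells (0.905). GFPhi to GFPlo in WT, with 1 pool left out, ran from 0.650 to 24.1 for Cyp2d12, 0.0986 to 2.85 for Cyp2g1, 0.901 to 26.5 for Cyp2j6 and 0.877 to 4.71 for the Cyp2j subfamily. It also turned for Cyp20a1 on the second date (0.467), and for Cyp2d12 on the first date and with ls primers (0 each). In KO it ran from 0.128 to 1.89 for Cyp3a13 and 0.0543 to 1.24 for the Cyp2d subfamily, and turned for Cyp2c29 without 1 pool (0.832) and on the second date (0.541) and for Cyp3a13 as a mean over cells (1.26). In 25 further alternatives 1 group had 0 counts and no ratio could be had. Of these 4 turned the direction: Cyp2d12 for KO against WT in GFPhi with ls primers, and, on the second date, Cyp4f13 between the WT gates, Cyp3a13 between the KO gates and the Cyp2d subfamily for KO against WT in GFPlo.

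Depth limits single members most, since 34 of the 75 detected had under 10 counts and 14 of the 41 others had over 50% of counts in 1 cell.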

Other observations

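Cyp51, the P450 of cholesterol synthesis, lies outside the symbol rule and had more counts than any member, 1284 in 92 cells. Its level was 56.8 CPM in KO GFPhi against 202 CPM in WT GFPhi, and 86.1 CPM in KO GFPlo against 112 CPM in WT GFPlo. It was lower in KO GFPhi on both dates, with 89.2 and 43.99 CPM in KO against 110 and 249 CPM in WT. Ptgis, the prostacyclin synthase, had 0.996 CPM in KO GFPhi against 14.4 CPM in WT GFPhi. Alas1, the first enzyme of haem synthesis, was highest in KO GFPlo, with 267 CPM there, 166 CPM in KO GFPhi, 126 CPM in WT GFPhi and 107 CPM in WT GFPlo.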
